A study of Mus musculus with 32 samples.

Results

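Gata1, Il5ra and Adora3 are 3 genes that eosinophils and mast cells draw on, and their RNA levels are described here in mouse lung. They were taken by symbol from the 26305 annotated genes of the deposited expression table. Each level is the sum of the gene's transcripts, averaged over the 2 sequencing lanes of a mouse. The lungs came from 16 wild-type C57BL/6J male mice, 6 to 8 weeks of age when bought, in 4 groups of 4. The control mice were unexposed and untreated. The WTCPM mice had World Trade Center particulate matter, a dust from the collapse of the towers, instilled into the nose. The WTCPM + rosoxacin mice had the dust and an intraperitoneal injection of rosoxacin, an antibacterial quinolone, at a dose of 5 mg/kg. The WTCPM + dexamethasone mice had the dust and an intraperitoneal injection of dexamethasone, an anti-inflammatory glucocorticoid, at 0.1 mg/kg. The labels do not state the dust dose, the interval between exposure and lung collection, or any vehicle for the control and WTCPM mice.

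Eosinophils and mast cells are granulocytes of type 2 immunity, the branch that acts in allergy and against worms. GATA1 is a DNA-binding transcription factor that erythroid cells, megakaryocytes, eosinophils, mast cells and basophils need for their development. IL5RA is the chain of the interleukin-5 receptor that binds the cytokine itself, and eosinophils depend on that signal to mature and survive. ADORA3 is a G protein-coupled receptor for adenosine, which in rodents acts on mast cells and can promote their degranulation.

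In GRCm38/mm10 with the GENCODE M21 annotation, Gata1 lies on the minus strand of chromosome X (7959260 to 7978071), Il5ra on the minus strand of chromosome 6 (106710357 to 106749037) and Adora3 on the plus strand of chromosome 3 (105870858 to 105908926). All are protein-coding, and each has 3 annotated transcripts. The 250 bases upstream of the RefSeq start are shown because GATA factors bind short GATA motifs and 1 of the genes encodes such a factor. The sequences are from RefSeq on GRCm38.p6, read 5′ to 3′ on the gene's strand, and all 3 genes matched. Capitals mark matches, on either strand, to the GATA factor motif of 6 letters, which is GATA with A or T before it and A or G after it.
Gata1, chrX:7967911-7968160, minus strand: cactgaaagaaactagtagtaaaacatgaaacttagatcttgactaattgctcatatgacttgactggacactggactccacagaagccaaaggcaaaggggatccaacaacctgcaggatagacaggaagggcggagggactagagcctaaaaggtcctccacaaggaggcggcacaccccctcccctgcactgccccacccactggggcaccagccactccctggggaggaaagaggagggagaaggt
Il5ra, chr6:106749038-106749287, minus strand: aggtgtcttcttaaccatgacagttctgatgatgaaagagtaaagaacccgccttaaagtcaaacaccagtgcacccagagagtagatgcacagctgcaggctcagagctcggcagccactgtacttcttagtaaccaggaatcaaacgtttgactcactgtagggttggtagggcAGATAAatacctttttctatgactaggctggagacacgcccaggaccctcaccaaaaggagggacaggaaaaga
Adora3, chr3:105904171-105904420, plus strand: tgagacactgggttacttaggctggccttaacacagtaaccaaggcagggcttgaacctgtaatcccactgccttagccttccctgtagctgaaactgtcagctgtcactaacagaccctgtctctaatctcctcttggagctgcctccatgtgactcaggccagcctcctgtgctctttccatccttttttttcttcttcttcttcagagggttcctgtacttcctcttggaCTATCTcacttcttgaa
The Il5ra window held 1 match, which starts 74 bases before the start site, the Adora3 window held 1, which starts 17 bases before it, and the Gata1 window held 0. Of 32851 such windows in the table of promoters, 26.5% held at least 1 match. These matches describe letters only, and binding was not measured.

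Levels are in FPKM, which counts fragments relative to transcript length and library size, and all annotated genes together held 0.114% of the FPKM. The rest lay in 28335 assembled loci that the files do not pair with gene names, and whether such a locus also holds RNA of the 3 genes is not known here. None of 14 epithelial and endothelial markers of lung had an identifier of its own (0 of 14), so the tissue label could not be checked with them. The file gives no read counts, but FPKM times transcript length piled up at 1 small value in each library. Taken as the worth of 1 fragment, this step gave 8700000 to 14000000 fragments per library, rounded, and 17500000 to 28000000 per mouse. Rosoxacin mice had 18300000 to 20600000 and control mice 19200000 to 28000000. On that scale, with the longest annotated transcript as the length, the mean over the 16 mice rested on about 7.78 fragments per mouse for Gata1, 13.7 for Il5ra and 19.04 for Adora3. Such numbers limit every statement below, and they cover counting error only. Total FPKM per mouse was higher in rosoxacin mice (924277 to 1329954) than in WTCPM (742168 to 803130) and dexamethasone mice (763725 to 861652). In control mouse 1 it was 1099603, and in the other control mice 704683 to 776678. Its part in the changes with rosoxacin was not tested beyond the rescaled fits. Control mouse 1 stood apart in several eosinophil and mast cell markers, and some of the counts that rest on it are also given without it.

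Over all 16 mice, Adora3 had the highest level per transcript length, 0.371 ± 0.125 FPKM (SD, n = 16). Gata1 (0.182 ± 0.112) and Il5ra (0.180 ± 0.0844) were at nearly the same level, well within each other's spread. In this bulk tissue, fewer cells of a type and less RNA per cell cannot be told apart. P-values below are from limma, fitted on log2(FPKM + 0.1) over the 2749 annotated genes whose mean reached 0.1 FPKM, and adjusted over all of them. Changes are on that log2 scale, which understates the change of low genes. Comparisons share mice: control, WTCPM, rosoxacin and dexamethasone mice each enter 3 of the 6.

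**Figure D1:**
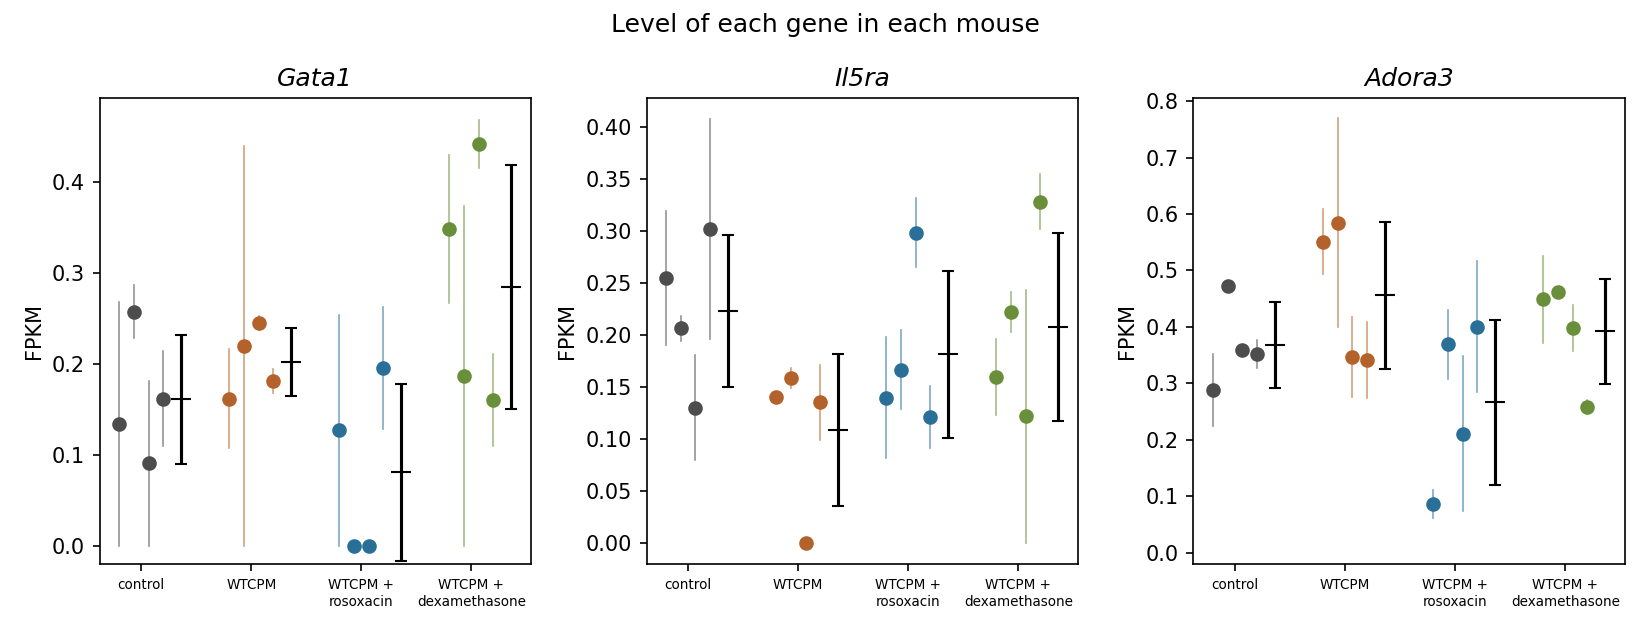
Levels of Gata1, Il5ra and Adora3 in FPKM (y axis) in the 4 mice of each group (x axis). Points are mice, thin lines join the 2 lanes of a mouse, and black bars are the group mean ± SD (n = 4). Gata1 is listed at 0 in rosoxacin mice 2 and 3 and Il5ra in WTCPM mouse 3, and every pair of groups overlaps.

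Gata1, the transcription factor, had its lowest mean in rosoxacin mice and its highest in dexamethasone mice. In control mice 1 to 4 its levels were 0.134, 0.257, 0.0905 and 0.161 FPKM, and in WTCPM mice 0.162, 0.220, 0.245 and 0.181. The control and WTCPM ranges overlapped almost fully. In rosoxacin mice the levels were 0.127, 0, 0 and 0.196 FPKM, and in dexamethasone mice 0.348, 0.187, 0.442 and 0.160. Rosoxacin mice 2 and 3 were the only mice in which Gata1 was listed at 0, whereas rosoxacin mice 1 and 4 lay inside the range of the control mice. Dexamethasone mice 1 and 3 lay above all mice of the other groups, and dexamethasone mice 2 and 4 did not. The group means were 0.0806 ± 0.0972 with rosoxacin, 0.161 ± 0.0706 in control, 0.202 ± 0.0375 with dust alone and 0.284 ± 0.134 FPKM with dexamethasone (SD, n = 4 each). No neighbours in this order differed beyond their spread.

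Rosoxacin against dexamethasone was the comparison in which Gata1 differed most, with a log2 change of -1.19 (SE 0.36, 95% interval -1.94 to -0.44, limma adjusted p = 0.0653). That interval excludes 0, but the adjusted p is above the threshold of 0.05. The fit called 4.26% of genes in this comparison (117 of 2749), and the median change of all genes was -0.15, so that the change of Gata1 relative to the median was -1.04. Rescaled to a fixed total per mouse (TPM), which moved the median of all genes to -0.41, Gata1 passed with a change of -1.46 (limma adjusted p = 0.0157). Relative to the moved median that change was -1.06, and 11.3% of genes (310 of 2749) were called under the rescaling. It also passed without rosoxacin mouse 4 (-1.48, limma adjusted p = 0.0489) and without dexamethasone mouse 4 (-1.35, limma adjusted p = 0.0467), and, at the same change of -1.19, with all features in the fit (limma adjusted p = 0.0259), where 29.5% were called (8030 of 27230). These 2 mice were the highest with rosoxacin and the lowest with dexamethasone, so that leaving either out had to widen the difference. No other alternative passed. The limma adjusted p reached 0.561 over all alternatives and 0.177 with 1 mouse left out.
Against dust alone, the change with rosoxacin was -0.90 (SE 0.36, 95% interval -1.65 to -0.15, limma adjusted p = 0.214), in a comparison in which 0.546% of genes were called. It passed after TPM rescaling alone (-1.20, limma adjusted p = 0.0481), which called 9.82% of genes (270 of 2749). The rescaling moved the median of all genes from -0.16 to -0.46, and relative to the median the change of Gata1 was -0.74 before it and -0.75 after it. The other comparisons gave 0.24 for dust against control (limma adjusted p = 0.936), -0.66 for rosoxacin against control (limma adjusted p = 0.340), 0.29 for dexamethasone against dust (limma adjusted p = 0.961) and 0.53 for dexamethasone against control (limma adjusted p = 0.997). The fit called 0% of genes for dust against control, 3.31% for rosoxacin against control, 0% for dexamethasone against dust and 0.0364% for dexamethasone against control. At an unadjusted p under 0.05 the first and the third of these hold 5.13% and 5.38% of genes.

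The zeros of Gata1 bear on how firmly these values can be read. In 5 of 16 mice Gata1 was listed at 0 in lane 1 and above 0 in lane 2, with 4.8 to 8.3 fragments behind the lane 2 value, and the reverse occurred in 0 mice. Among all genes of the fit, zeros in lane 1 alone (8.01% of gene and mouse pairs) and in lane 2 alone (8.21%) were equally common. WTCPM mouse 2 was the extreme case, with 0 FPKM in lane 1 and 0.440 in lane 2 from 1 animal. In rosoxacin mice 2 and 3 both lanes were at 0, where 3 fragments would have given 0.0820 and 0.0864 FPKM. That is just below the level of control mouse 3. Of the genes in the fit, 9.02% (248 of 2749) were at 0 in at least 2 of the 4 rosoxacin mice, and 0.764% (21 of 2749) were so while above 0 in all 12 other mice, as Gata1 was. The rosoxacin mice also carry the lowest library numbers of the series, 1 to 4, so that treatment and library number cannot be told apart.

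**Figure D2:**
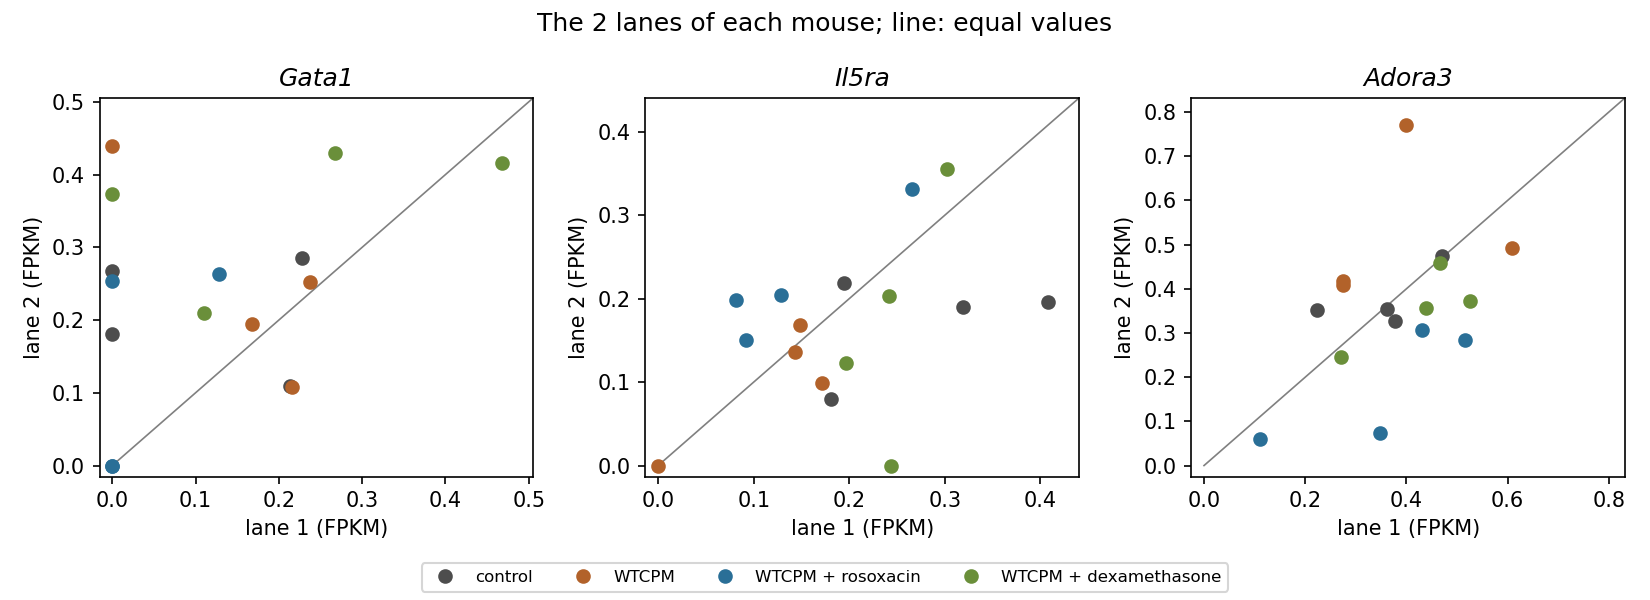
Lane 2 against lane 1 in FPKM for Gata1, Il5ra and Adora3, 1 point per mouse and coloured by group, with a line of equal values. Gata1 has 5 mice on the lane 2 axis at 0 in lane 1, Adora3 has no library at 0, and the median difference between lanes was 0.106 FPKM for Gata1, 0.0692 for Il5ra and 0.120 for Adora3.

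Il5ra, the receptor of the eosinophil survival cytokine, had its lowest mean after dust alone. Its levels were 0.255, 0.207, 0.130 and 0.302 FPKM in control mice 1 to 4 and 0.140, 0.158, 0 and 0.135 in WTCPM mice. WTCPM mouse 3 was at 0 in both lanes, and 3 fragments would have given 0.0449 FPKM there. The other 3 WTCPM mice lay close together, above control mouse 3 and below the other 3 control mice. With rosoxacin the levels were 0.140, 0.167, 0.298 and 0.121 FPKM, and with dexamethasone 0.160, 0.223, 0.122 and 0.328. Both drug groups spread over nearly the whole control range.

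The group means of Il5ra were 0.108 ± 0.0730 with dust alone, 0.182 ± 0.0801 with rosoxacin, 0.208 ± 0.0904 with dexamethasone and 0.223 ± 0.0733 FPKM in control (SD, n = 4 each), and no neighbours in this order differed beyond their spread. Dust against control gave a log2 change of -0.70 (SE 0.32, 95% interval -1.38 to -0.01, unadjusted p = 0.0466, limma adjusted p = 0.894). At that unadjusted level 2.18% of all genes were lower. Without WTCPM mouse 3 the change was -0.37 (limma adjusted p = 0.939). Relative to dust alone, Il5ra was 0.49 higher with rosoxacin (limma adjusted p = 0.489) and 0.61 higher with dexamethasone (limma adjusted p = 0.950), neither of which passed. The remaining changes were -0.21 for rosoxacin against control (95% interval -0.89 to 0.48), -0.08 for dexamethasone against control (-0.77 to 0.60) and -0.12 for rosoxacin against dexamethasone (-0.81 to 0.56). The last of these turned to 0.05 with median-of-ratios scaling.

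Adora3, the adenosine receptor, was above 0 in all 32 libraries. Its levels were 0.288, 0.473, 0.358 and 0.353 FPKM in control mice 1 to 4, and 0.551, 0.585, 0.346 and 0.341 in WTCPM mice. WTCPM mice 1 and 2 were the highest of all 16 mice, and WTCPM mice 3 and 4 lay within the control range. With rosoxacin the levels were 0.0861, 0.369, 0.211 and 0.400 FPKM, and with dexamethasone 0.449, 0.463, 0.399 and 0.258. Rosoxacin mice 1 and 3 were the lowest of all 16 mice, but rosoxacin mice 2 and 4 lay inside the range of every other group. Of this low pair, rosoxacin mouse 3 was also at 0 for Gata1 and rosoxacin mouse 1 was not.

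The means of Adora3 ran from 0.267 ± 0.146 with rosoxacin through 0.368 ± 0.0767 in control and 0.392 ± 0.0935 with dexamethasone to 0.456 ± 0.130 FPKM with dust alone (SD, n = 4 each), and neighbours again did not differ beyond their spread. Rosoxacin against dust alone gave the largest change, -0.67 (SE 0.29, 95% interval -1.29 to -0.06, unadjusted p = 0.0330, limma adjusted p = 0.261). At an unadjusted p under 0.05, 12.3% of all genes were lower in this comparison. The change of Adora3 was -0.17 in lane 1 alone and -1.24 in lane 2 alone. Without rosoxacin mouse 1 it was -0.38 (limma adjusted p = 0.520). Adora3 was 0.23 higher in dust than in control mice (limma adjusted p = 0.926), and its change was -0.44 for rosoxacin against control (limma adjusted p = 0.440) and -0.51 for rosoxacin against dexamethasone (limma adjusted p = 0.350). The changes with dexamethasone were -0.17 against dust and 0.06 against control, and both turned sign when 1 lane was used alone.

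Adora3 shares 779 exon bases, 20.9% of its own, with Tmigd3, a neighbour on the same strand some of whose transcripts start at the same first exon or use another exon of Adora3. Reads in these bases could be split between both genes by the authors' estimation. Tmigd3 averaged 0.403 ± 0.106 FPKM in control, 0.348 ± 0.0411 with dust, 0.247 ± 0.106 with rosoxacin and 0.305 ± 0.138 with dexamethasone (SD, n = 4 each). It too had its lowest mean with rosoxacin. Of the FPKM of Adora3, 74.0% lay in 1 of its 3 transcript rows and 26.0% in another. Gata1 and Il5ra share no exon bases with another annotated gene, and 1 transcript row held 96.6% of the FPKM of Gata1 and all of that of Il5ra.

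**Figure D3:**
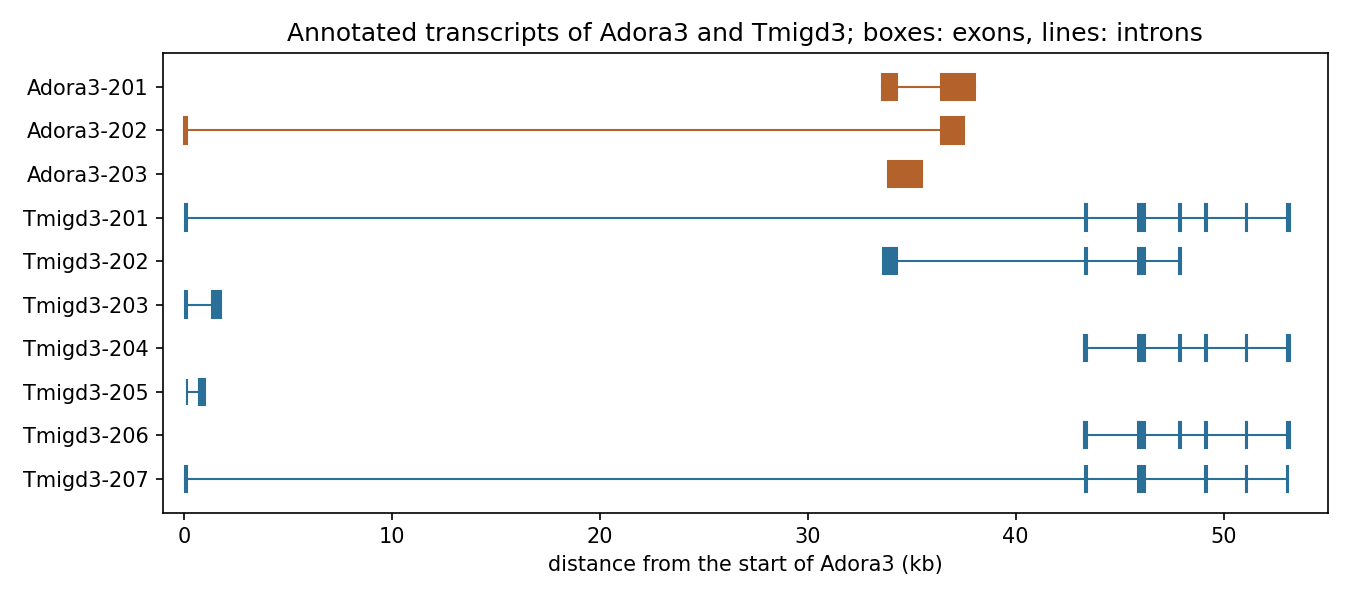
Annotated transcripts of Adora3 (orange) and Tmigd3 (blue), 1 per line, by distance from the start of Adora3 in kb (x axis), with boxes for exons and lines for introns. Some Tmigd3 transcripts share the first exon of 1 Adora3 transcript or part of an exon of another, 779 bases in all.

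Taking the 3 genes over the 6 comparisons, 0 of 18 changes passed the threshold, and in 0 of 18 were the groups free of overlap. Of all genes in the fit, 3.02% had groups without overlap for dust against control, 11.1% for rosoxacin against dust, 4.07% for dexamethasone against dust, 11.2% for rosoxacin against control, 2.4% for dexamethasone against control and 13.1% for rosoxacin against dexamethasone. In size, the changes ran from -1.19 to 0.61. Gata1 and Adora3 had the same order of rosoxacin below control below dust alone, whereas Il5ra was lowest in dust alone. Across the 16 mice, Pearson's r of log2(FPKM + 0.1) was 0.39 between Gata1 and Adora3 and 0.07 after the group means were removed. It was -0.32 between Gata1 and Il5ra (-0.48 after the group means were removed) and -0.13 between Il5ra and Adora3 (-0.00093). These are descriptions of libraries that share depth and scale, and with so few fragments a weak correlation is no finding.

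**Figure D4:**
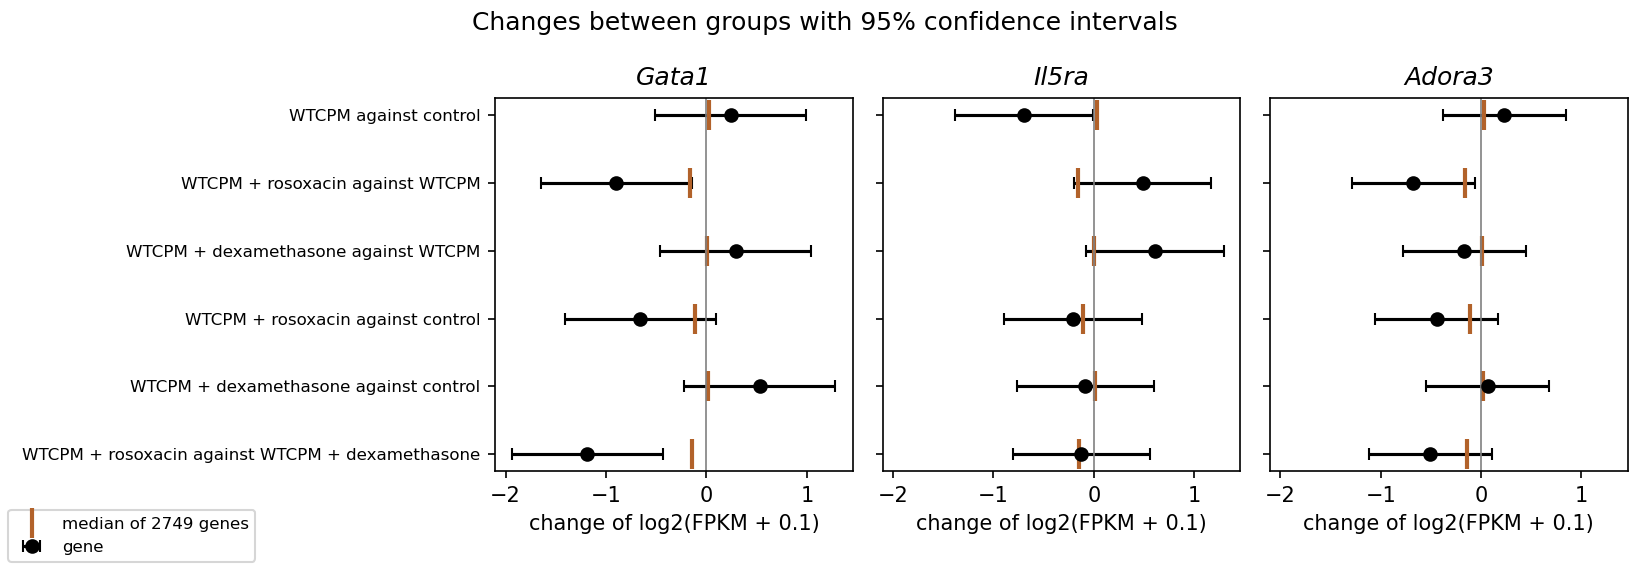
Log2 changes of Gata1, Il5ra and Adora3 (points) with 95% confidence intervals from limma for the 6 comparisons of groups; orange ticks mark the median change of the 2749 genes in the fit. The Gata1 changes with rosoxacin against dust (-0.90) and against dexamethasone (-1.19) lie farthest below their medians.

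Of 183 genes in 14 lists of cell types and pathways, 45 had an identifier of their own, and 12 besides the 3 genes entered the fit. In the list of erythroid and megakaryocyte genes, to which GATA1 is central, 7 of 26 genes had an identifier and 3 entered the fit, of which 0 passed in any comparison. Epb42, a red cell membrane protein, averaged 0.248 ± 0.0329 FPKM in control and 0.118 ± 0.0745 with rosoxacin (log2 change -0.72, limma adjusted p = 0.151). It averaged 0.196 ± 0.0449 with dust alone and 0.177 ± 0.110 with dexamethasone. Rhag and Ermap, below the minimum for the fit, had higher means with rosoxacin than in control. Klf1 and Gfi1b, also below it, had lower ones. Of the GATA factors and their partners, 3 of 18 had an identifier and Gfi1, a transcriptional repressor that acts in myeloid development, was the only other one in the fit. It averaged 0.0899 ± 0.0531 FPKM in control, 0.138 ± 0.0768 with dust alone, 0.0899 ± 0.0543 with rosoxacin and 0.178 ± 0.0276 with dexamethasone (SD, n = 4 each) and did not pass in any comparison.

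The ligands of type 2 immunity were close to absent under their own names. Of 14 such ligands 4 had an identifier: Il3, Il9 and Il25 were listed at 0 in all mice, and Il13 was above 0 in 1 of 16. Il5 and the eotaxins Ccl11 and Ccl24 had none, and neither did any of 8 type 2 response genes. Of 19 receptors and transducers 3 had an identifier: Il5ra, Il13ra2, which was listed at 0 in all mice, and Ccr3, the eotaxin receptor of eosinophils. Ccr3 was above 0 in 10 of 16 mice and highest in dexamethasone mouse 1, at 0.0833 FPKM. It was below the minimum for the fit.

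In the adenosine list, 6 of 20 genes had an identifier and 5 entered the fit, with 0 passing in any comparison. Adora1, another adenosine receptor, had the highest level, 0.774 FPKM over all mice, and ranged from 0.722 ± 0.131 with dexamethasone to 0.856 ± 0.294 in control. Slc29a2, a nucleoside transporter, was at 0.196 ± 0.0888 FPKM with rosoxacin and at 0.305 ± 0.0202 in WTCPM mice (log2 change -0.50, limma adjusted p = 0.286). Slc28a3, a concentrating nucleoside transporter, averaged 0.174 ± 0.138 and 0.143 ± 0.0567 in the same groups.

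Markers of other immune cells were measured in few genes. For neutrophils, 2 of 12 entered the fit. Asprv1 passed in 2 comparisons, higher with dexamethasone than in control (log2 change 1.41, limma adjusted p = 0.0247) and lower with rosoxacin than with dexamethasone (-0.84, limma adjusted p = 0.0478). With each of the 16 mice left out in turn, an alternative added after the data were seen, Asprv1 passed in 10 of 16 fits of the first comparison (limma adjusted p = 0.00960 to 0.164) and in 2 of 16 of the second (0.0268 to 0.151). The first was lost without control mouse 2, 3 or 4 or dexamethasone mouse 1, 2 or 3. It was the only gene called in that comparison, and 0 were called in lane 1 alone, with the 2 groups alone or with a replicate block. Gata1 lay in the same direction in both comparisons, but so did Adora3, Gfi1 and other genes of the lists. Il5ra was not higher with dexamethasone than in control. Whether cell composition has a part in the values of Gata1 was not tested. The macrophage gene C3ar1, the lymphocyte genes Klrg1 and Icos and the other neutrophil gene Cxcr2 did not pass in any comparison, and 0 of 6 B cell markers had an identifier.

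The remaining eosinophil, mast cell and basophil markers were low, and several of them were found mainly in control mice. Of 11 eosinophil markers 5 had an identifier, of 20 mast cell markers 11, and of 9 basophil markers 4. Siglecf and the Ear genes of eosinophils and Kit, Cpa3 and Cma1 of mast cells had none. Prg3, Mcpt2 and Mrgprb2 were listed at 0 in all 16 mice. Apart from Adora3, the 10 measured mast cell markers summed to 0.112 to 0.829 FPKM in control mice, 0 to 0.131 with dust alone, 0.0406 to 0.277 with rosoxacin and 0 to 0.0715 with dexamethasone. Without control mouse 1 the highest control sum was 0.505 FPKM. The control and rosoxacin mice overlapped, as did control and WTCPM mice. Ms4a2, the beta chain of the IgE receptor, was not found mainly in control mice: it was at 0 in control mice 1 and 3 and above 0 in all 4 rosoxacin mice, up to 0.184 FPKM. Other markers did not share the pattern either. Rgs13 was above 0 in 1 mouse of each group. In the order control, WTCPM, rosoxacin and dexamethasone, Mcpt8 was above 0 in 1, 1, 2 and 2 mice. Epx was so in 1, 1, 1 and 0 mice and Ccr3 in 2, 1, 3 and 4.

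**Figure D5:**
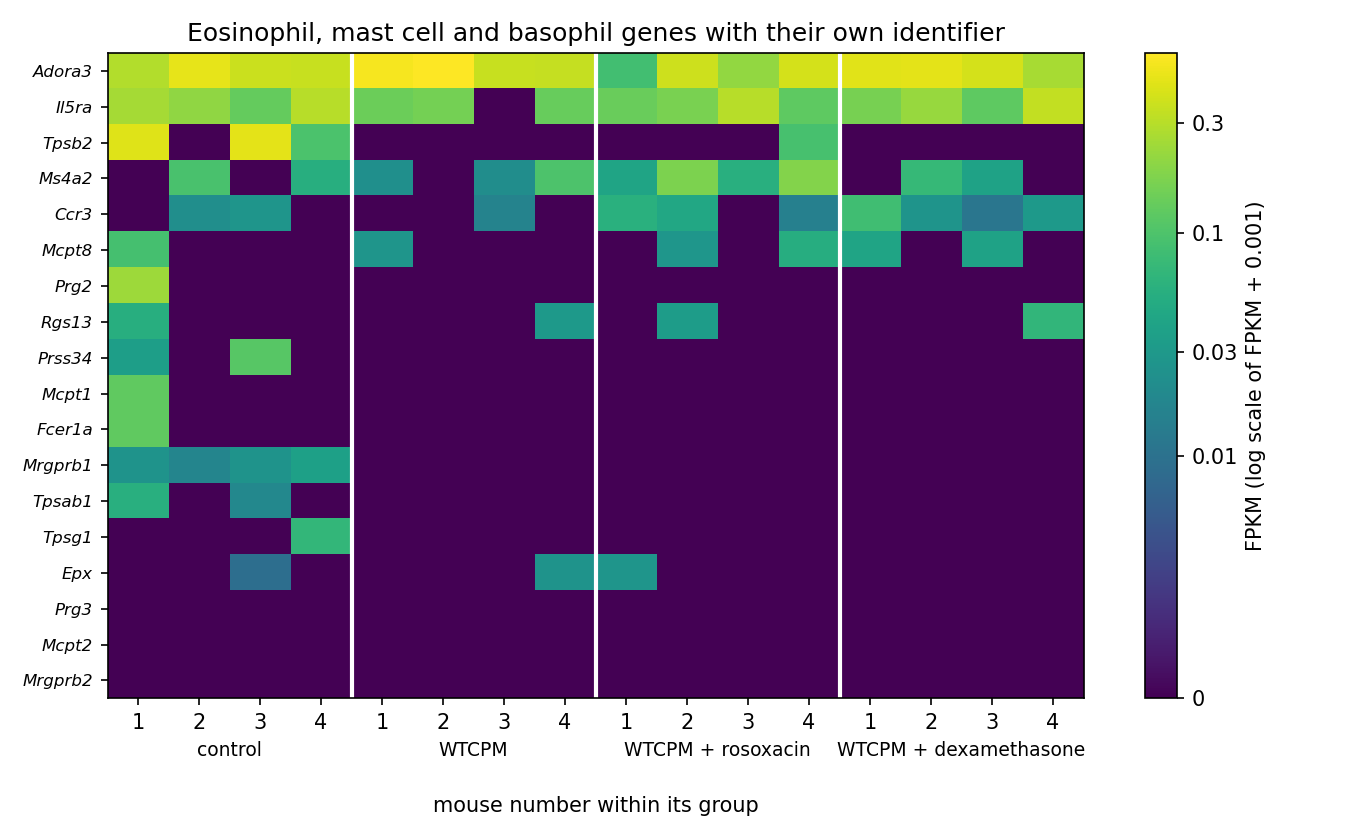
Levels of 18 eosinophil, mast cell and basophil genes (rows) in the 16 mice (columns, by group and mouse number), with the colour giving FPKM on a log scale and the darkest colour a value of 0. Adora3 and Il5ra are present almost throughout, whereas Mrgprb1 is above 0 in the 4 control mice and at 0 in the 12 others.

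Mrgprb1 and Tpsb2 were singled out after their values were seen, and both belong to families of similar genes between which the authors' estimation could split reads. Mrgprb1, a receptor of the Mrgpr family found on mast cells, was at 0.0255, 0.0175, 0.0258 and 0.0373 FPKM in control mice 1 to 4, from 2.0 to 3.0 fragments each, and listed at 0 in all 12 dust-exposed mice. It was the only 1 of 11799 annotated genes above 0 anywhere with that pattern (0.00848%), and the only 1 when control mouse 1 was left out. No gene was at 0 in all control mice and above 0 in all others (0 of 11799). That reverse pattern asks for a level above 0 in 12 mice rather than 4, so the 2 counts cannot be compared. In a limma fit without the minimum level, added after the data were seen, the change of Mrgprb1 was -0.34 for dust against control (limma adjusted p = 0.0287), -0.34 for rosoxacin against control (limma adjusted p = 0.0183) and -0.34 for dexamethasone against control (limma adjusted p = 0.0366). That fit called 0.017%, 0.0593% and 0.017% of genes in the 3 comparisons, which share the control mice. The size of the Mrgprb1 change is set by the pseudocount. Only the 4 control mice add spread of this gene, since the other 12 values are equal. The limma standard error also takes in those equal values and the spread of other genes. The gene was picked for this pattern, so these p-values are no independent support of it.

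Tpsb2, a mast cell tryptase, was at 0.443, 0, 0.460 and 0.0961 FPKM in control mice 1 to 4. It was at 0.0930 in rosoxacin mouse 4 and at 0 in the other 11 dust-exposed mice. Of 11799 annotated genes, 33 (0.28%) were, like Tpsb2, above 0 in at least 3 control mice and at most 1 of the 12 others. Tpsb2 has this pattern only with control mouse 1 counted, and the count was not made without that mouse. In the same fit the change of Tpsb2 for dust against control was -1.47 (limma adjusted p = 0.813), with control mouse 2 at 0 like the exposed mice. The eosinophil granule gene Prg2 (0.234 FPKM) and the mast cell genes Fcer1a (0.126) and Mcpt1 (0.126) were above 0 in control mouse 1 alone.

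Of 16 eosinophil, mast cell and basophil genes besides the members, 9, 3, 6 and 4 were above 0 in control mice 1 to 4, 0 to 3 in WTCPM mice, 1 to 4 in rosoxacin mice and 2 to 3 in dexamethasone mice. Of the 11799 annotated genes, 44.8% were above 0 in control mouse 1, the lowest share of all mice, 51.4% to 54.99% in the other control mice, 47.2% to 50.6% in WTCPM mice, 46.05% to 48.3% in rosoxacin mice and 47.7% to 51.3% in dexamethasone mice. Control mice 2 and 3 were the most deeply sequenced of the series, at 27000000 and 28000000 fragments, while control mouse 1 had 23500000 and dexamethasone mouse 3 had 26800000. The adipocyte hormone gene Lep, also looked at after its values were seen, was at 0.978, 0.105, 0.289 and 0.381 FPKM in control mice 1 to 4, at 0 to 0.0471 with dust alone, 0.0636 to 0.311 with rosoxacin and 0.0639 to 0.196 with dexamethasone. The part of depth and of tissue other than lung in the mast cell values was not tested. Gata1, Il5ra and Adora3 did not share this excess in control mouse 1, where they were at 0.134, 0.255 and 0.288 FPKM, each inside the range of the other control mice or, for Adora3, below it.

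The genes whose levels ran most like each member over the 16 mice were sought among 978 features with a gene symbol other than a predicted-gene name. For Gata1 they were Tpbg (Pearson r = 0.74), Pafah1b1-ps1, Kbtbd13, Dpf3 and Smim10l2a (r = 0.67). For Il5ra they were Calhm6 (r = 0.69), Spns3, Traj52, Ffar1 and Igkv3-12 (r = 0.59), and for Adora3 Mkx (r = 0.80), Prokr1, Cldn34c3, Cbx3-ps4 and Xcr1 (r = 0.72). None of the 3 members was among the 5 most like another. The values share library and depth, and the highest of 978 correlations is large by selection.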

How the data were processed

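Lung RNA of 16 mice was sequenced on 2 lanes each. The authors deposited FPKM per transcript for 186512 transcripts in 32 libraries, and the single-library files hold the same values. StringTie 2.1.5, HISAT2 2.2.1, HISAT, SAMtools 1.12, R 4.0.4 and FastQC are named for build mm10, per the submitters' processing notes. The sources used here do not give their order, settings, strand use or annotation.

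From these values, transcripts were summed per gene, the lanes of a mouse were averaged as 1 replicate, and 4 groups were fitted together with limma 3.58.1 in R 4.3.3 (eBayes with trend) on log2(FPKM + 0.1), over the annotated genes whose mean reached 0.1 FPKM. The threshold was 0.05 after Benjamini-Hochberg adjustment, and p-values measure the spread between mice. Symbols came from GENCODE M21 (25424 of 26305 identifiers). Fragments were estimated from the most frequent FPKM times length, in bins of 0.001, among 19326 genes with 1 annotated transcript. The procedures were tested on simulated data. Python 3.11.15 with matplotlib 3.10.9 drew the figures.

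The 3 members are named in every comparison. Of each list up to 4 genes of the fit with the highest mean are named, and 5 genes by likeness per member. The values of 1 list gene are not reported here. Members and lists were chosen with earlier results of these data known. The labels give groups the same mouse numbers, which were taken to name mice and pair none. Same-numbered mice correlated at over 0.1 in 4 of 24 pairs. Differently numbered mice were not correlated, so these values cannot tell whether mice were paired. Alternatives were other scalings, pseudocounts, filters and lanes, 2-group fits, no trend, a replicate block, the library number as covariate and each mouse left out. Added after seeing the data were 1 Adora3 transcript row alone, Adora3 with Tmigd3, list genes without a filter, the detection pattern without control mouse 1, and Asprv1 with each mouse left out.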

Additional observations from a re-analysis of the deposited data

Results flagged for a closer look

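Il5ra in WTCPM mouse 3 was listed at 0 FPKM (0.0), while the other 3 mice of its group lay between 0.135 and 0.158. The gap to the nearest mouse was 0.855 of the range of the group, above the 95% critical value for 4 mice in Dixon's test. This was 1 of 12 groups of values examined, and chance gives such a gap in about 1 of 20. Both lanes of the mouse were at 0.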

How the results depend on the processing

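The direction of Gata1 in all 6 comparisons was kept under every alternative run. Its change with rosoxacin against dust passed after TPM rescaling (-1.20), and against dexamethasone after TPM rescaling (-1.46), with all features (-1.19) and in 2 of 16 fits with 1 mouse left out, over which the change ran from -1.48 to -0.96. No change of Il5ra or Adora3 passed under any alternative. The following changed sign. Adora3 for dexamethasone against dust gave 0.13 in lane 1 alone, and against control -0.069 in lane 2 alone, -0.14 summed with Tmigd3, and -0.021 to 0.21 with 1 mouse left out. Il5ra for rosoxacin against control gave 0.25 in lane 2 alone, for dexamethasone against control -0.26 to 0.059 with 1 mouse left out, and for rosoxacin against dexamethasone 0.046 with median-of-ratios scaling, 0.018 with quantile normalisation, 0.42 in lane 2 alone and -0.30 to 0.049 with 1 mouse left out. The cause was not tested.

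The number of genes called moved more than the members did. For dust against control it was 0, and 1 with a pseudocount of 1, a lower filter (0.05), lane 1 alone or no trend, 2 with a pseudocount of 0.01 or no filter, 10 with all features, and 0 to 1 with 1 mouse left out. For dexamethasone against dust it was 0, and 1 with a pseudocount of 1 or no trend. For dexamethasone against control it was 1, 2 with TPM, a pseudocount of 0.01, no filter, all features or lane 2, 0 with lane 1 or the 2 groups alone, and 0 to 3 with 1 mouse left out. For rosoxacin against dust it was 15, and 270 with TPM, 8 with quantile normalisation, 5 without a filter, 5690 with all features, 0 in lane 1, 3 with the 2 groups alone, 3 with the library number as covariate and 2 to 24 with 1 mouse left out. For rosoxacin against control it was 91, and 260 with TPM, 44 with median-of-ratios scaling, 40 with quantile normalisation, 21 with a pseudocount of 1, 7 without a filter, 6498 with all features, 7 and 16 in lanes 1 and 2, 24 with the 2 groups alone, 0 with the library number and 11 to 122 with 1 mouse left out. For rosoxacin against dexamethasone it was 117, and 310, 41, 30 and 57 under the first 4 of these, 15 without a filter, 62 with the lower filter, 8030 with all features, 3 and 7 in lanes 1 and 2, 12 with the 2 groups alone, 68 without trend, 0 with the library number and 14 to 162 with 1 mouse left out. With a replicate block the calls were 1 for dust against control and 0 for dexamethasone against control, and no member passed. The block pairs mice by number alone. Same-numbered mice correlated at -0.16 to 0.30, and differently numbered mice were not correlated for comparison. The median of all genes for rosoxacin against dust was -0.16 as deposited, -0.46 after TPM and 0.01 after median-of-ratios scaling.

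Depth limits all 3 genes. With about 7.78, 13.7 and 19.04 fragments per mouse, counting error alone gives a coefficient of variation of 35.9% for Gata1, 27.0% for Il5ra and 22.9% for Adora3, against 61.5%, 46.8% and 33.6% over the 16 mice. An FPKM of 0 can also be an estimate that was not made.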
